A study of Homo sapiens with 15 samples.

Results

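The proteasome subunit genes were examined in A549 cells, a human lung adenocarcinoma line, after 1 of 5 microRNAs had been overexpressed or suppressed. The members were the probes whose gene name is PSM followed by a letter from A to G and a digit. This rule gave 43 of the 30484 gene names on the array and 64 of its 41000 probes, and it used no measured value. Each of the 15 arrays was a 2-colour hybridisation. RNA from cells transfected with a synthetic miRNA (the mimic, miCENTURY OX miNatural) carried Cy5, and RNA from cells transfected with a locked nucleic acid inhibitor of the same miRNA (the antagomir, miRCURY LNA Knockdown) carried Cy3. The oligonucleotides were used at 20 nM, and RNA was taken 24 h after transfection. Each miRNA had 3 arrays, and the miRNAs were miR-574-3p, miR-766, miR-181d, miR-629* and miR-565. No mock-transfected cells were on these arrays, and the dyes were never exchanged, so that within a miRNA the dye and the treatment cannot be told apart. The labels number the replicates without naming separate cultures, and p-values therefore measure the spread between these samples, which may be technical. The miRNA levels themselves were not analysed here.

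The 26S proteasome is the protease that degrades proteins tagged with ubiquitin. Its 20S core is a barrel of outer alpha rings (PSMA) and inner beta rings (PSMB), and the protease sites lie on the beta subunits PSMB5, PSMB6 and PSMB7. In cells exposed to interferon, PSMB8, PSMB9 and PSMB10 take the places of these sites and form the immunoproteasome. The 19S cap holds a ring of ATPases (PSMC), which unfold the substrate, and non-ATPase subunits (PSMD), which bind and remove ubiquitin. PSME1 and PSME2 together form the PA28 activator, another cap that opens the core and is also induced by interferon, and PSMF1 is an inhibitor of the core.

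By particle, the members were 8 genes of the alpha ring (9 probes), 10 of the beta ring (13 probes), 6 ATPases (11 probes), 14 non-ATPase genes (22 probes) and 5 activators and inhibitors (9 probes). Of the 64 probes, 63 were among the 31357 probes tested, that is, those that 3 or more arrays placed well above background in at least one channel. The exception was PSMA8, an alpha subunit known from testis, whose signals of 1.30 to 2.66 were not well above background on any array. The members were bright. Their median mean log2 signal was 13.12, against 7.7 over all probes tested. Probes for PSMB11 and PSMG4 were not found by name. Epithelial and A549 markers were well above background (6 of 6 genes), whereas PTPRC, PECAM1 and COL3A1, which mark blood, endothelial and stromal cells, were not on any array. ALB and CD3E, from the same list of other cell types, were tested.

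The sequences behind the main result are those of miR-574-3p and of the probes that differed on its arrays. Mature miR-574-3p (RefSeq, GRCh38.p14, chr4:38868092-38868113, plus strand) is shown 5′ to 3′ with its seed, bases 2 to 8, in capitals.
hsa-miR-574-3p: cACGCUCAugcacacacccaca
The probes of 3 of the 4 genes described first are given as the array files hold them (NCBI36, minus strand). The PSMA5 probe lies at chr1:109756034-109756234 and the PSMB10 probe at chr16:66526048-66526232. These spans of 201 and 185 bases are longer than the 60-base probes, so both probes bridge a gap in the genome. The PSMA7 probe lies at chr20:60149323-60149382 without a gap. The PSME2 probe (chr14:23682417-23682476) is not shown.
PSMA5 probe: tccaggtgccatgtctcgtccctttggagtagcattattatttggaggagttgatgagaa
PSMA7 probe: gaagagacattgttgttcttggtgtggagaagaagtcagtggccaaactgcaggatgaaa
PSMB10 probe: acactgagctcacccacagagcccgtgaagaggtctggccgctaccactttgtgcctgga

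One array stood apart and is described before the comparisons. On replicate 1 of miR-565 the 63 log2 ratios had an SD of 0.82, against 0.14 to 0.21 on the other 14 arrays. Over all probes tested the SD was 0.94 on replicate 1 of miR-565 and 0.29 to 0.53 on the others. On this array 20 members (31.7%, against 24.9% of all probes tested) lay below -0.5. Above 0.5 lay 5 of the 63 members, beside 8429 of the 31357 probes tested, whose median was 0.14. The 4 probes of PSMC6, an ATPase, read -2.47 to -2.56. The brightest PSMC6 probe had a mimic signal of 2583 beside an antagomir signal of 14406. PSMA4, an alpha subunit, read -2.28 with signals of 5436 and 26477. PSMC2 (-1.54), PSMA2 (-1.31), PSMA3 (-1.30), PSMD14 (-1.20) and PSMC1 (-1.16) were also low. The immunoproteasome genes lay above 0, as did the median of all probes on this array, with PSMB8 at 0.65, PSMB9 at 0.56 and PSMB10 at 0.32. Other genes did too, among them PSME3 (0.49) and the dimmer probes of PSMD8 (0.93) and PSMD9 (0.64). Of the members, 29 (46%) were below the lowest of the other 14 arrays and 19 (30.2%) above the highest; the same shares over all probes tested were 28% and 40.2%. Over the members, this array correlated with its own replicates 2 and 3 at -0.209 and -0.259, whereas those 2 arrays correlated at 0.904 (a description over 63 probes that share the array). Over all probes tested, the same correlations were 0.2, 0.375 and 0.528. For the low genes named, the departure was mainly in the mimic channel. Against the 3 miR-181d arrays of its slide, PSMA4 differed by -2.08 in the mimic channel and by 0.05 in the antagomir channel, on the log2 scale. The same 2 differences were 0.60 and -0.02 for PSMB8, 0.26 and -0.20 for PSMB9, and 0.21 and -0.19 for PSMB10. The share of probes well above background in the mimic channel was lowest on this array (68.11%, against up to 75.49%), and its part in these ratios was not tested. All arrays entered the fits, and values without this array are given where they change a result.

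**Figure D1:**
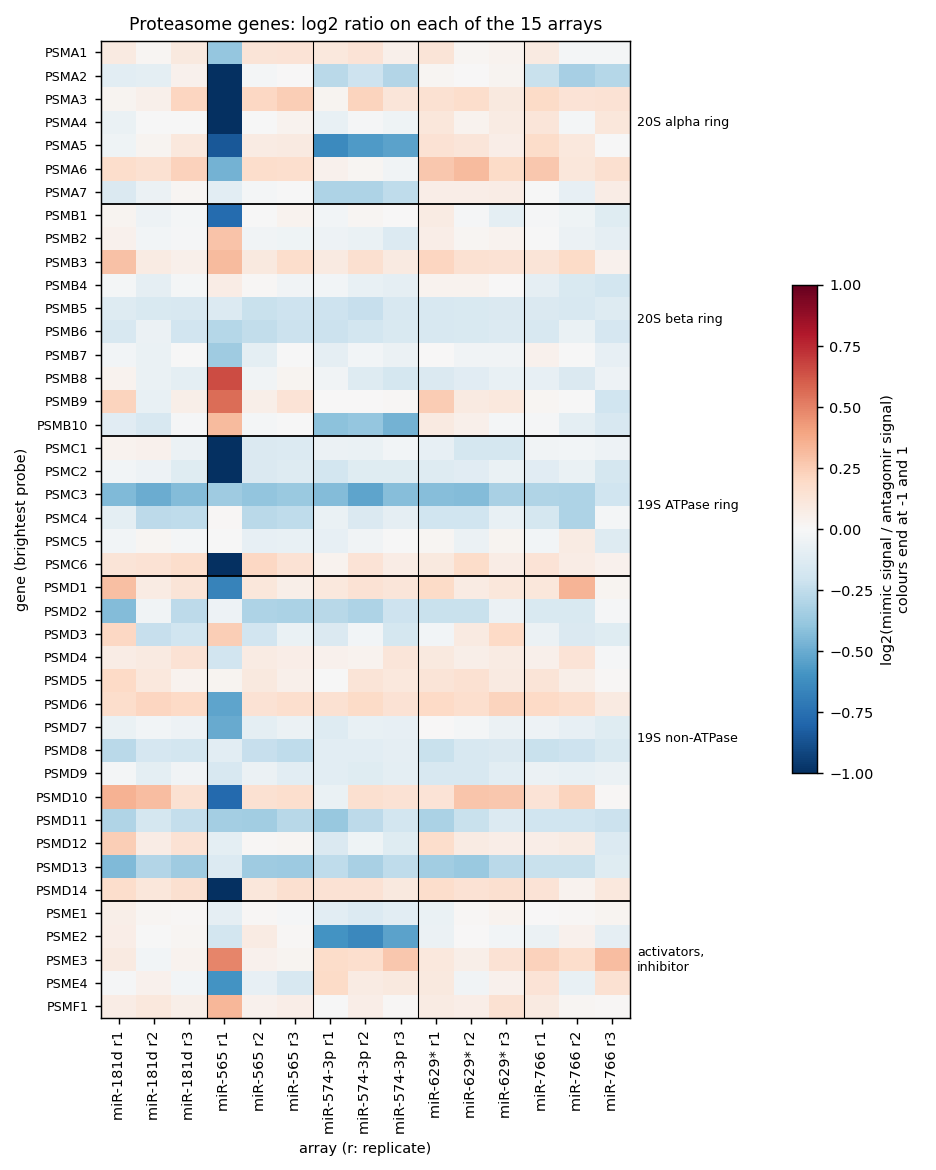
Log2 ratio of mimic over antagomir signal for the brightest probe of 42 proteasome genes (rows, grouped by particle) on each of the 15 arrays (columns); colours end at -1 and 1. Replicate 1 of miR-565 has dark blue cells (PSMA2, PSMA4, PSMC2 and PSMC6 among them) and red cells (PSMB8 and PSMB9) that its replicates 2 and 3 lack, and PSMA5, PSMA7, PSMB10 and PSME2 are low on the 3 miR-574-3p arrays.

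The first question was how the proteasome genes differed between cells that overexpressed and cells that suppressed miR-574-3p. PSME2, PSMA5, PSMB10 and PSMA7 were lower with the mimic than with the antagomir, by 0.29 to 0.59 on the log2 scale. In all, 10 of the 63 member probes were called lower and 2 higher (limma, Benjamini-Hochberg adjusted p under 0.05 over all probes tested), where 2.56% of all probes were called lower and 2.76% higher. The median ratio of the members was -0.04, and that of all probes 0.01. By particle, 2 of 8 alpha ring probes, 3 of 13 beta ring probes, 1 of 11 ATPase probes, 3 of 22 non-ATPase probes and 1 of 9 activator and inhibitor probes were called lower. For no miRNA did a member have a ratio under 0.5, which the methods of the study ask of a suppressed mRNA, or over 2, the mirror image of that limit added here. Leaving out 1 miR-574-3p array gave 4 to 9 called members, and the slide as a random block gave 3.

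PSME2 encodes the beta subunit of the PA28 activator. Its mimic signals on the 3 miR-574-3p arrays were 31556, 34359 and 34835, and its antagomir signals were 47658, 53760 and 50508. The channels did not overlap. The log2 ratios were -0.59, -0.65 and -0.54, with a mean of -0.59 ± 0.055 (SD, n = 3), a fold of 0.663 and an adjusted p of 2.08e-05 in limma. On the other 12 arrays the PSME2 ratio lay between -0.18 and 0.09.

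PSMA5, a subunit of the alpha ring, had mimic signals of 20053, 24080 and 23059 and antagomir signals of 31205, 35577 and 33328. Again every antagomir signal was above every mimic signal. The ratio was -0.58 ± 0.055 (SD, n = 3), a fold of 0.670 (adjusted p = 0.0199). On the other arrays the ratio lay between -0.04 and 0.18, except on replicate 1 of miR-565, where it was -0.85. The PSMA5 call was lost when any 1 of the 3 miR-574-3p arrays was left out (-0.60 to -0.55, adjusted p of 0.0822 to 0.154). Without replicate 1 of miR-565 the adjusted p was 8.45e-07.

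PSMB10, the immunoproteasome subunit that replaces PSMB7, was dimmer. Its mimic signals were 3265, 4097 and 3860, and its antagomir signals were 4327, 5366 and 5350. The ranges did not overlap, and the ratio was -0.42 ± 0.043 (SD, n = 3), a fold of 0.746 (adjusted p = 0.00176). On the other 12 arrays the ratio lay between -0.16 and 0.32. PSMA7, another alpha subunit, had mimic signals of 21973, 25601 and 25350 and antagomir signals of 27284, 31628 and 30208. Its ratio was -0.29 ± 0.032 (SD, n = 3), a fold of 0.818 (adjusted p = 0.00139), against -0.14 to 0.08 on the other 12 arrays. With the slide as a block, the PSMB10 ratio was -0.34 (adjusted p = 0.139) and the PSMA7 ratio -0.31 (adjusted p = 0.0893).

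**Figure D2:**
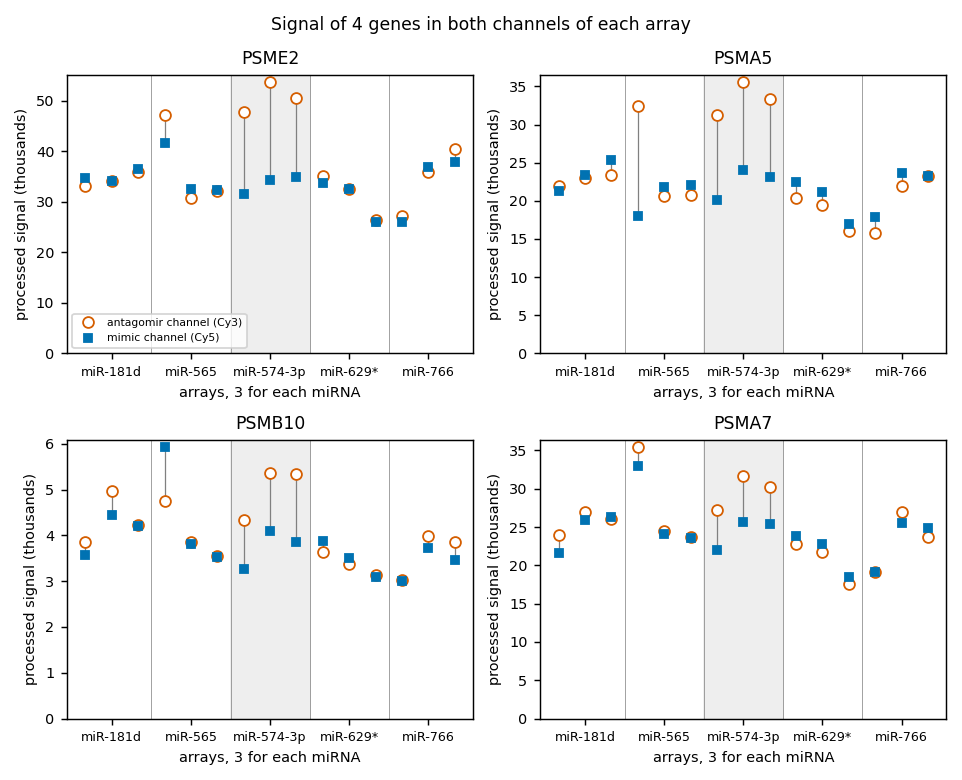
Processed signal (axis units of 1000) for PSME2, PSMA5, PSMB10 and PSMA7 in the antagomir channel (open circles) and the mimic channel (squares) of each array, 3 arrays for each miRNA. The channels are separated on the miR-574-3p arrays of all 4 genes, and for PSMA5 also on replicate 1 of miR-565, whose signals were brighter in general.

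The fixed dye orientation enters every ratio, so the miR-574-3p ratios were also set against the mean ratio of the other 4 miRNAs, a difference in which a common dye effect cancels. Of the members, 3 were called lower and 0 higher, beside 0.705% of all probes called lower. These were PSME2, with a difference of -0.58 (95% interval -0.69 to -0.46, adjusted p = 9.1e-05), PSMB10 with -0.41 (-0.56 to -0.26, adjusted p = 0.00952) and PSMA7 with -0.28 (-0.38 to -0.18, adjusted p = 0.00779). PSMA5 differed by -0.58 (-0.89 to -0.27) and missed the threshold (adjusted p = 0.0822). Leaving out 1 miR-574-3p array kept the call of PSME2. PSMB10 then had adjusted p of 0.0708 to 0.102, and PSMA7 of 0.0826 and 0.0833 without replicates 1 and 2. The fit without replicate 1 of miR-565 called 9 members lower and 2 higher (2.93% of all probes were lower), and PSMA5 differed by -0.66 (adjusted p = 1.2e-06). The 9 were PSMA5, PSME2, PSMB10, PSMA7, PSMA2 (-0.18), both probes of PSMA6 (-0.20 and -0.19), PSMD12 (-0.18) and PSME1 (-0.13).

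Each channel was then compared with the same dye on the other 12 arrays, after quantile normalisation within the dye. The 4 genes were high in the antagomir channel of the miR-574-3p arrays. PSMA5 was higher there by 0.63 (SE 0.0405, adjusted p = 2.33e-08), PSME2 by 0.57 (SE 0.0438, adjusted p = 2.01e-07), PSMB10 by 0.36 (SE 0.0624, adjusted p = 0.00101) and PSMA7 by 0.28 (SE 0.0363, adjusted p = 5.95e-05). In the mimic channel the differences were 0.04 for PSMA5 (95% interval -0.18 to 0.26), -0.03 for PSME2 (-0.12 to 0.06), -0.05 for PSMB10 (-0.20 to 0.11) and -0.01 for PSMA7 (-0.08 to 0.06). Other miRNAs' treated cells were the reference in both channels, since no mock arm was available.

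In the alpha ring, 5 of 8 probes were called higher and 0 lower in the antagomir channel of miR-574-3p. Beside PSMA5 and PSMA7 these were PSMA2 by 0.21 (adjusted p = 0.00106) and both probes of PSMA6 by 0.18 and 0.16 (adjusted p of 0.00636 and 0.00228). In the beta ring, PSMB10 was higher, and the dimmer of the probes of PSMB7, a constitutive protease subunit, was lower by 0.24. Of the activators, PSME2 and its partner PSME1 were higher, PSME1 by only 0.13 (adjusted p = 0.0427). A dimmer probe of PSME3, the nuclear activator PA28 gamma, was 0.20 lower, and the dimmer probe of PSMF1 was 0.21 lower. None of the 11 ATPase probes and none of the 22 non-ATPase probes was called in this channel (limma). In all, 8 members were higher and 3 lower, 11 of 63, where 8.53% of all probes tested were called in either direction. Leaving out 1 miR-574-3p array gave 6 to 9 called members. Without replicate 1 of miR-565 the count was again 11, beside 7.6% of all probes. In the mimic channel 0 members were called for any of the 5 miRNAs. Over all 31357 probes tested, this channel called 84 with miR-766 and 0 with each of the others. The 0 therefore does not set the members apart from other genes. Unadjusted p in limma was under 0.05 for 2 members with miR-181d, 12 with miR-565, 3 with miR-766 and 0 with miR-574-3p or miR-629*. With the slide as a random block the count for miR-181d was 23, in a fit that called 21.8% of all probes.

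**Figure D3:**
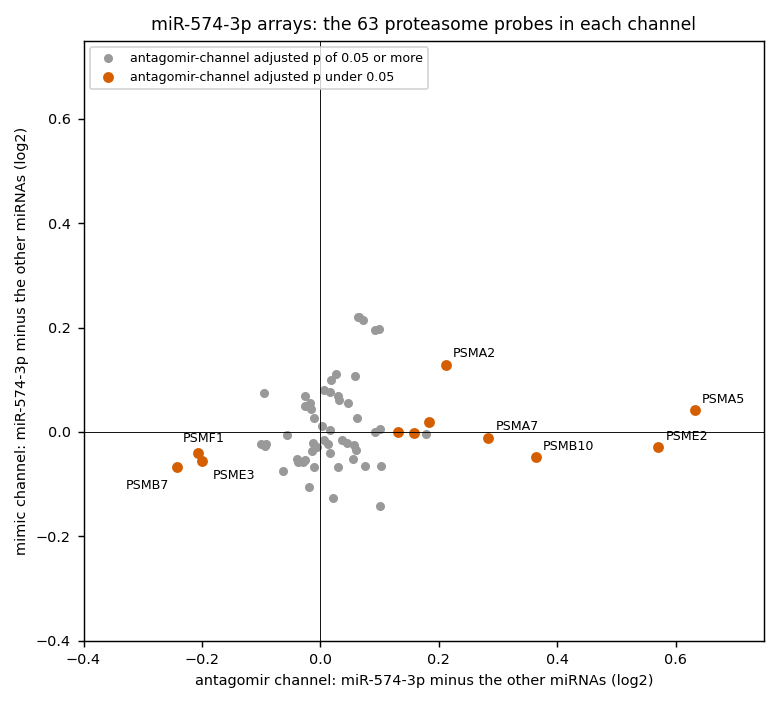
The 63 member probes on the miR-574-3p arrays: log2 difference from the other miRNAs in the antagomir channel (x axis) and in the mimic channel (y axis). Orange points passed the test in the antagomir channel; PSMA5, PSME2, PSMB10 and PSMA7 lie at 0.28 to 0.63 on the x axis and within 0.05 of 0 on the y axis.

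The differences of the 4 genes were also present within slides. Slide 2 held replicates 1 and 2 of miR-574-3p and replicates 2 and 3 of miR-565. Within it, the antagomir channel of miR-574-3p was higher by 0.66 for PSME2, 0.65 for PSMA5, 0.35 for PSMB10 and 0.26 for PSMA7. Slide 3 held replicate 3 of miR-574-3p and the 3 arrays of miR-629*, and there the differences were 0.50, 0.64, 0.45 and 0.34 in the same order. In the mimic channel they lay between -0.06 and 0.02 on both slides. These within-slide values have no test.

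The members with fixed roles were split with miR-574-3p. Of the interferon-inducible beta subunits, PSMB10 was lower, whereas the ratio was -0.11 for PSMB8 (adjusted p = 0.608) and 0.01 for PSMB9 (adjusted p = 0.981). PSMB8 signals ran from 652 to 795 over both channels of these arrays. Of the constitutive protease subunits, PSMB5 (-0.20) and PSMB6 (-0.18) were called lower and PSMB7 (-0.06, adjusted p = 0.624) was not. The 2 PA28 subunits differed in size, with -0.59 for PSME2 and -0.12 for PSME1 (adjusted p = 0.0661). PSME3 read 0.21 on its brightest probe (adjusted p = 0.143) and was called higher by another (0.36, adjusted p = 0.016). PSME4, the activator PA200, read 0.12 (adjusted p = 0.465), and PSMF1 0.03 (adjusted p = 0.868). Of the dedicated assembly chaperones of the 19S base, PSMD5 read 0.08, PSMD9 -0.11 and PSMD10 0.08, and none was called. Of the ubiquitin receptors and the deubiquitinase of the cap, PSMD2 read -0.26 (adjusted p = 0.051), PSMD4 0.07 and PSMD14 0.13 (adjusted p of 0.542 and 0.773). The dimmer PSMD4 probe read -0.20 and was called lower.

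The promoters of the genes with the largest differences were compared by their letters. RefSeq (GRCh38.p14) gave the 250 bases before the start for 38 of the 43 members, and PSMA7 was without an entry. Capitals mark matches to TGACNNNGC, the core of the antioxidant response element, and to CCAAT, both searched on both strands, and the run shared by PSME2 and PSMB10. PSME2 lies at chr14:24146611-24146860, PSMB10 at chr16:67936851-67937100 and PSMA5 at chr1:109426449-109426698, all on the minus strand.
PSME2: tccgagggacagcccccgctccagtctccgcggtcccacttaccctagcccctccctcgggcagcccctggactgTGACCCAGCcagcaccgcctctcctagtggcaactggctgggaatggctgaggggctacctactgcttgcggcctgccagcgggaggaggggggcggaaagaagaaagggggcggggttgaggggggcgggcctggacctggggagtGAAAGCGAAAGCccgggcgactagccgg
PSMB10: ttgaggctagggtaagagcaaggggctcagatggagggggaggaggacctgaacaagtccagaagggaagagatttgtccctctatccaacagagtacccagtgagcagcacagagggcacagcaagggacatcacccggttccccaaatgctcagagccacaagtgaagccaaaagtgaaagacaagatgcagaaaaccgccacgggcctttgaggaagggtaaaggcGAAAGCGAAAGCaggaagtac
PSMA5: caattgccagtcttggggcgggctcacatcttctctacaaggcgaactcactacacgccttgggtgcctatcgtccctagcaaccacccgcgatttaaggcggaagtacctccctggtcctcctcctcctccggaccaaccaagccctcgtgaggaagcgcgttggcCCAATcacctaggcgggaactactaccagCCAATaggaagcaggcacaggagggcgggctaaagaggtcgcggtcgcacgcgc
The longest run common to PSME2 and PSMB10 was GAAAGCGAAAGC, 12 letters, at 28 to 17 bases before the start of PSME2 and 21 to 10 before that of PSMB10. It was found in 13 of 27305 promoters of this length (0.0476%). The 2 of the 38 member promoters that held it were those of PSME2 and PSMB10, which defined the run. PSMA5 shared at most 9 letters with PSME2 and 8 with PSMB10. Of the 13 genes with this run, 7 were tested. PSME2 and PSMB10 were among these and had been picked because they were lower with miR-574-3p. MYD88, an adaptor of Toll-like receptors, was called higher with miR-574-3p (0.71, adjusted p = 0.000683) and differed by -0.93 in the antagomir channel. Of all probes tested, 2.76% were called higher with this miRNA. The rest of the tested genes with the run were EARS2 (-0.04), RNF31 (-0.08), TAP2 (0.27) and UBFD1 (0.12). None of these was called in the ratio or in the antagomir channel. TGACNNNGC was found in 9 of 38 members (23.7%) and in 11% of all promoters, and CCAAT in 16 members (42.1%) and in 33% of all promoters. PSME2 held TGACNNNGC at 175 to 167 bases before its start, and PSMA5 held CCAAT at 83 to 79 and 54 to 50. A match is a match of letters only.

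A second group of members was lower with the mimic for every miRNA. PSMC3, an ATPase of the cap, was the clearest. Its log2 ratio was -0.46 with miR-181d, -0.38 with miR-565, -0.46 with miR-574-3p, -0.39 with miR-629* and -0.27 with miR-766 (adjusted p from 3.52e-05 to 0.00624), and it lay between -0.52 and -0.20 on the 15 arrays. On the miR-574-3p arrays the mimic signals of PSMC3 were 6032, 6405 and 6682 beside antagomir signals of 8134, 9214 and 8973. PSMD11, a scaffold subunit of the cap lid, read -0.24, -0.32, -0.27, -0.23 and -0.20 in the same order of miRNAs, and PSMB5, the subunit with the chymotrypsin-like site, read -0.15, -0.19, -0.20, -0.15 and -0.14. Both were below 0 on 15 of 15 arrays and were called with all 5 miRNAs. PSMB6, the caspase-like subunit, and the lid subunits PSMD13 and PSMD8 were called lower with 4 miRNAs. In all, 6 members were called lower with at least 4 miRNAs, beside 0.52% of all probes. Leaving out 1 array kept the PSMC3 calls but for miR-766 (adjusted p of 0.0939 and 0.0595 without its replicates 1 and 2), and ended the PSMD11 call with miR-181d and miR-766 and the PSMB5 call with miR-181d, miR-629* and miR-766 whichever array of the miRNA was left out. With the slide as a random block, PSMC3 was called only with miR-181d and miR-574-3p (adjusted p = 0.081 with miR-565, 0.226 with miR-629* and 1 with miR-766), and PSMD11 and PSMB5 with no miRNA (adjusted p from 0.0728). Because Cy5 was always the mimic, a dye effect of these probes and an effect common to all 5 mimics cannot be told apart.

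Fewer members were higher with every miRNA. The dim PSMD12 probe was called higher with 4 (0.26 to 0.37), while the brighter PSMD12 probes were not called. PSMD4 had probes of opposite sign. The dimmer was called lower with 3 miRNAs, and the brighter read 0.06 to 0.10 except with miR-565 (-0.02). In the fit without replicate 1 of miR-565, 7 members were called lower with all 5 miRNAs (2.44% of all probes) and 4 higher with all 5 (4% of all probes). The 7 were PSMC3, PSMD11, PSMB5, PSMB6, PSMD8, PSMD13 and the dimmer PSMD4 probe. The 4 were PSMD6, PSMD14, the dim PSMD12 probe and a PSMC6 probe. PSMD14, the deubiquitinase of the lid, then read 0.09 to 0.16 and PSMD6 0.15 to 0.20. The core assembly chaperones carry older names on the array and were found by accession. PSMG2, listed as TNFSF5IP1, was higher with all 5 miRNAs (0.30, 0.31, 0.26, 0.29 and 0.34, adjusted p from 0.00219 to 0.00417). With miR-574-3p, PSMG1 read -0.03 and PSMG3 0.02, and neither was called.

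**Figure D4:**
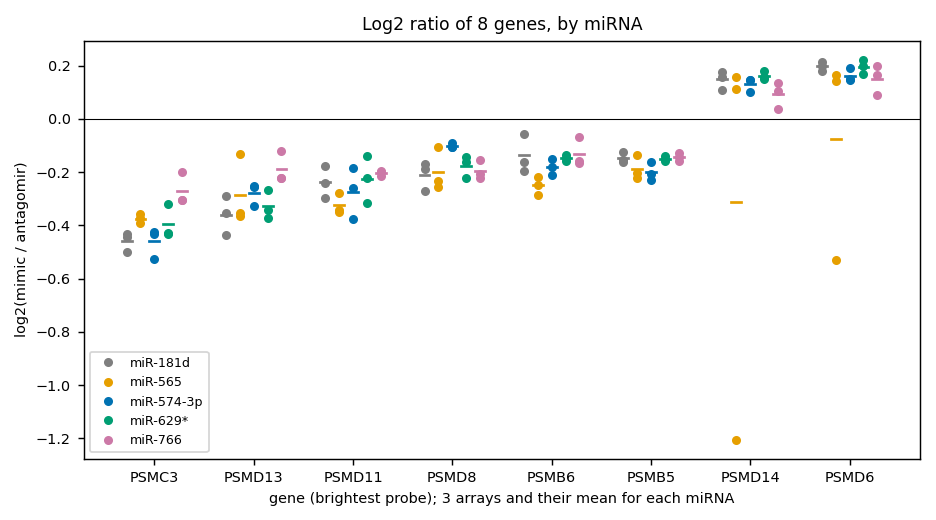
Log2 ratio of 8 proteasome genes on each array (points) with the mean of the 3 arrays of each miRNA (bars). PSMC3, PSMD11 and PSMB5 lie below 0 on all 15 arrays, and PSMD6 and PSMD14 above 0 on all but replicate 1 of miR-565, where PSMD14 reads -1.20.

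The calls of the other 4 miRNAs included most of this shared group. With miR-181d, 1 member was called higher and 6 lower (all probes 3.41% and 2.85%), and the median was 0.00. With miR-629* the counts were 2 higher and 8 lower (5.99% and 4.54%), with PSMD9 (-0.14, adjusted p = 0.0254) and one PSMB2 probe (0.22) beside the shared genes. With miR-766 they were 0 higher and 4 lower (1.47% and 0.702%), PSMC3, PSMD11, PSMB5 and PSMD8. Leaving out 1 array of the miRNA gave 1 to 3 called members with miR-181d, 2 to 3 with miR-629* and 0 to 1 with miR-766, and the slide block gave 0 with miR-565, miR-629* and miR-766. With miR-565 the counts were 4 higher and 11 lower (8.76% and 4.56%), and PSMC1 (-0.48), PSMC2 (-0.60), PSMD7 (-0.22) and PSME4 (-0.28) were among the lower. Without its replicate 1, miR-565 had 10 higher and 12 lower (15.9% of all probes called). PSMC1 then read -0.14 (adjusted p = 0.0159) and PSMC2 -0.14 (adjusted p = 0.0202), and 3 PSMC6 probes were called higher by 0.18 to 0.20. The median of the members moved from -0.15 to 0.00. Leaving that array out also raised the counts of the other miRNAs, to 31 with miR-181d (28.1% of all probes), 29 with miR-574-3p (22.3%), 34 with miR-629* (35.1%) and 24 with miR-766 (18.7%).

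**Figure D5:**
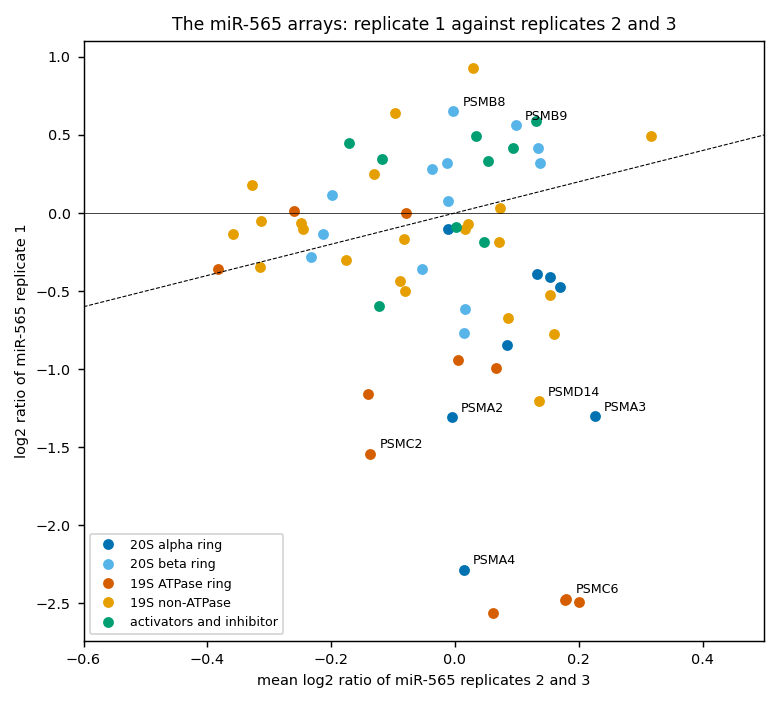
Log2 ratio of the member genes on replicate 1 of miR-565 (y axis) against the mean of its replicates 2 and 3 (x axis), coloured by particle; the dashed line marks equal values. The mean of replicates 2 and 3 lies within -0.4 and 0.4, whereas replicate 1 reaches -2.56 for a PSMC6 probe and 0.93 for the dimmer PSMD8 probe.

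Set against the other 4 miRNAs, 0 members were called for miR-181d, miR-565, miR-629* or miR-766 in limma (unadjusted p under 0.05 for 4, 17, 3 and 3 members). Over all 31357 probes tested, the same comparison called only 0, 33, 16 and 2 in this order. With the slide as a random block the count for miR-181d was 28, in a fit that called 31.9% of all probes. In the antagomir channel, 1 member was called for miR-181d (PSME2, -0.20, beside 1.96% of all probes), 1 for miR-565 (PSME2, -0.23, beside 2.79%), 3 for miR-629* (PSMA5 -0.22, PSMA2 -0.17 and PSMA7 -0.17, beside 0.855%) and 2 for miR-766 (PSMA2 0.20 and PSMA5 -0.17, beside 4.21%). The mean that these values are set against holds the miR-574-3p arrays, where the same genes were high. PSMA2 was high in the antagomir channel of both miR-574-3p and miR-766. Its ratios were -0.27, -0.21 and -0.30 on the miR-574-3p arrays and -0.22, -0.33 and -0.28 on the miR-766 arrays, and elsewhere lay between -0.11 and 0.04 but for replicate 1 of miR-565. These ratios were not called with all arrays (adjusted p = 0.473 with miR-574-3p). Without replicate 1 of miR-565 they were -0.26 (adjusted p = 0.000132) and -0.28 (adjusted p = 0.000181). The 3 miR-766 arrays were alone on their slide, and slide and miRNA cannot be told apart there.

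Genes that work with the proteasome were examined on the miR-574-3p arrays from lists of their own. Of 10 partner genes, 1 was called lower, beside 2.56% of all probes. This was TXNL1, a thioredoxin bound to the cap (-0.24, adjusted p = 0.017). In the antagomir channel 3 of the 10 were higher, beside 4.03% of all probes, TXNL1 by 0.20, the small cap subunit SEM1 (listed as SHFM1) by 0.20 and the core maturation factor POMP by 0.11. NFE2L1, a transcription factor of proteasome genes, read -0.29 (adjusted p = 0.0777). Among the ubiquitin and shuttle genes reported here, UBB, a ubiquitin gene, was called higher (0.19) and VCP, an ATPase that delivers substrates, lower (-0.17). UBB was called higher with every other miRNA too, and VCP lower with all of them but miR-766. Neither gene was called in the difference from the other miRNAs. Both ratios thus belong with the shared ones, in which a dye effect and a common mimic effect cannot be told apart. UFD1L, a partner of VCP, differed from the other miRNAs by -0.26 (adjusted p = 0.0149), beside 0.705% of all probes called lower in this comparison. Its ratio with miR-574-3p was -0.10 and not called (adjusted p = 0.211), and with the other miRNAs it was 0.14 to 0.20. Of 12 antigen presentation and interferon genes, 0 were called in the ratio. In the antagomir channel 1 gene of this list was called higher and 1 lower, beside 8.53% of all probes called in either direction. The lower one was TAPBP, a peptide-loading factor, by 0.26 (adjusted p = 0.0027 in limma). The mean it is set against holds the miR-629* arrays, where TAPBP was higher in that channel by 0.53 (adjusted p = 2.35e-05). The median of this list in that channel was -0.05.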

How the data were processed

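Per the file headers, the authors scanned each array with Agilent Feature Extraction 9.5.3.1, which subtracted background, detrended and applied LOWESS dye normalisation to give processed signal intensity in each channel (annotation NCBI36). The deposited series table holds log10 ratios identical to those of the arrays, and was used only as an alternative. LOWESS assumes that most genes do not change between the channels of an array. Outlier spots were left out and spots of a probe averaged. The log2 ratio of mimic over antagomir was tested with limma 3.58.1 in R 4.3.3 (1 coefficient per miRNA, intensity trend, all 15 arrays sharing the spread), with Benjamini-Hochberg adjustment over 31357 probes and 0.05 as the threshold. Per the file headers, Feature Extraction's flags (used here as a score of 0 or 1) mark spots well above background and outliers, and a probe was tested when 3 or more arrays flagged it so in at least one channel. Each channel was compared with the same dye on the 12 other arrays after quantile normalisation. The fit was tested on simulated data.

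The brightest probe speaks for a gene. Named genes were the 8 called members with the lowest adjusted p in each comparison and those with fixed roles. The members, lists and motifs were chosen with earlier results of these data known. The fits without replicate 1 of miR-565, the letter run shared by promoters, and the members named outside this rule (the genes extreme on that array, PSMA2, PSMA6 and PSMD6 among them) were chosen after seeing the data. Alternatives were other background corrections and scalings, probe filters, error-weighted means, blocks and left-out arrays. A Resolver error model and the thresholds of the methods were approximated or applied as alternatives. The number of arrays limits the precision. PSMC3IP only begins with the same letters and was not a member. Some genes of the lists are not reported here.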

Additional observations from a re-analysis of the deposited data

Results flagged for a closer look

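With miR-574-3p, 3 proteasome genes had a ratio that differed from that of the other 4 miRNAs by a test of the difference itself (limma, adjusted p under 0.05 over all probes tested). The differences were -0.58 for PSME2, -0.41 for PSMB10 and -0.28 for PSMA7 on the log2 scale. Groups of 3 arrays are too small for a search for single outlying samples.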

How the results depend on the processing

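No called ratio or difference of a named gene changed sign under the alternatives run, whereas the median member ratio, which has no test and lies near 0, did for miR-181d, miR-565 and miR-766. In the orders below the miRNAs are miR-181d, miR-565, miR-574-3p, then miR-629* and miR-766. The counts of member probes called in the ratio were 7, 15, 12, 10 and 4. They were 2, 8, 5, 3 and 0 with error-weighted means, and 0 for all 5 with the thresholds of the methods and their mirror image. A fit on the 3 arrays of 1 miRNA alone gave 13 for miR-181d, 0 for miR-565, 28 for miR-574-3p and 28 for miR-629*. Without an intensity trend the counts were 4 for miR-181d, 9 for miR-565 and 1 for miR-766. Without a filter on dim probes miR-181d had 12, and after averaging the probes of each gene miR-565 had 9 and miR-629* had 6. For miR-766, median centering gave 7 and normexp with loess 8. The slide as a random block gave 0 for miR-565, 3 for miR-574-3p, 0 for miR-629* and 0 for miR-766. Leaving out 1 array of the miRNA gave 1 to 3, 21 to 32, 4 to 9, 2 to 3 and 0 to 1. Without replicate 1 of miR-565, an alternative chosen after seeing the data, the counts were 31 for miR-181d, 29 for miR-574-3p, 34 for miR-629* and 24 for miR-766. For the ratio against the other miRNAs, the slide block gave 28 for miR-181d (0 before) and 5 for miR-574-3p (3 before), miR-574-3p had 1 to 2 with 1 of its arrays left out, and 11 without replicate 1 of miR-565. In the antagomir channel (1, 1, 11, 3 and 2 before), median centering within the dye gave 0, 9, 7, 0 and 4. The slide block there gave 18 for miR-181d, 5 for miR-565, 13 for miR-629* and 19 for miR-766, and in the mimic channel 23 for miR-181d (0 before). Left-out arrays gave 0 for miR-181d, 0 to 1 for miR-565, 6 to 9 for miR-574-3p, 0 for miR-629* and 1 to 2 for miR-766. Without replicate 1 of miR-565 the antagomir channel had 0 for miR-181d and 1 for miR-629*. The median member ratio of miR-181d was -0.0257 after averaging the probes of each gene and -0.0168 with median centering, that of miR-629* 0.0097 with median centering, that of miR-574-3p -0.059 to -0.0264 and that of miR-565 -0.1652 to 0.0049 with 1 array left out. PSMA5 with miR-574-3p was -0.60 to -0.55 with 1 array left out. With the slide block PSMA7 was -0.31 and PSMB10 -0.34, and their differences from the other miRNAs were -0.30 to -0.27 and -0.43 to -0.39 with 1 array left out. PSME2 kept its call under all 11 alternatives, in both its ratio and its difference. The cause of these changes was not tested, except that a fit on fewer arrays has fewer samples. Replicate numbers did not pair the arrays. For this check the mean of each miRNA was subtracted from its ratios before arrays of different miRNAs were correlated. Of 30 same-numbered pairs 13 then correlated above 0.1 (-0.395 to 0.51), and 6 of 15 arrays correlated best with their own number. The replicate block gave ratio counts of 7, 15, 12, 10 and 3, and 2 for the antagomir channel of miR-181d.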
